A study of Mus musculus with 10 samples.

Results

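The glycerolipid and triglyceride synthesis enzymes Gpam, Agpat2, Agpat3, Lpin1, Lpin2, Dgat1, Dgat2 and Mogat1 were described in the livers of 10 lactating mice on a diet of high or low glycaemic index. They were taken as all probe sets, the groups of short probes that are combined into 1 value, annotated to exactly 1 of these 8 symbols. This gave all 8 of the enzymes, among 18193 named genes, through 18 of the 45037 probe sets tested on an Affymetrix expression array, with 1 array per mouse. All mice were of the QSi5 strain and were fed their diet from pregnancy to peak lactation, when the livers were taken. The high glycaemic index group (HGI, 5 mice) ate 51.4% glucose by weight in a diet of 15.6 MJ gross energy per kg. The low glycaemic index group (LGI, 5 mice) ate 51.4% of a starch that the labels call high amylase (Hi-Maze), at 16.3 MJ per kg. The labels also give a positive energy balance to HGI mice and a negative one to LGI mice, so diet and energy balance cannot be told apart. No age, litter size or parity is given in the sources used here.

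Most hepatic triglyceride is built on glycerol 3-phosphate. Glycerol-3-phosphate acyltransferases add the first fatty acid, acylglycerolphosphate acyltransferases the second, and lipins remove the phosphate to give diacylglycerol, which diacylglycerol acyltransferases turn into triglyceride. Monoacylglycerol acyltransferases reach diacylglycerol by a separate route that is prominent in the intestine. Diacylglycerol is also the branch point to phosphatidylcholine and phosphatidylethanolamine, and in the liver the triglyceride goes to droplets or leaves in very low density lipoprotein.

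Among the 8 enzymes, the values of Gpam, the mitochondrial acyltransferase of the first step, and of Lpin1, a lipin, lay higher in HGI livers at both of their probe sets, by 1.53-fold to 1.79-fold. Those of Agpat2, Agpat3, Dgat1, Dgat2 and the 3 measurable probe sets of Lpin2 differed by at most 0.21 on the log2 scale. Mogat1, near the floor of the arrays, stood lower. None of the 18 probe sets passed the threshold, an adjusted p under 0.05 in limma over all probe sets, which 0.0644% of all probe sets passed (0.0377% with the higher value in HGI and 0.0266% with the lower). Taking each gene at its brightest probe set, 0 of the 8 enzymes passed, against 0.0824% of all genes.

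The upstream sequences of Gpam and Lpin1 are shown because these were the enzymes with the largest differences. They are the 250 bases before a transcription start, from RefSeq (GRCm38.p6), 5′ to 3′. Gpam has 2 starts in this table, and the one printed is at chr19:55127239-55127488 on the minus strand. That of Lpin1 is at chr12:16610967-16611216, also on the minus strand. Capitals mark matches, on either strand, to TCACNCCA (a sterol regulatory element core), CCAAT (the NF-Y box), CANNTG (the E-box) and AGGTCA (a nuclear receptor half-site).
Gpam: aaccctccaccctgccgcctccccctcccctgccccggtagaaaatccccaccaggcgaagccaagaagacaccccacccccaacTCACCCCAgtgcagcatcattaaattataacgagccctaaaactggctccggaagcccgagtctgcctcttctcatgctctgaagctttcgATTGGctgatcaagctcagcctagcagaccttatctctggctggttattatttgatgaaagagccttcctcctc
Lpin1: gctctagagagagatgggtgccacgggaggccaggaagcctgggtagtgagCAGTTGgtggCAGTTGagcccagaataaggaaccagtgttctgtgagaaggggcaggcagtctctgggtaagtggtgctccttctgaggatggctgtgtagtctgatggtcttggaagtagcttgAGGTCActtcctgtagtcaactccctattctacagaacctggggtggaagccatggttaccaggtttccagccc

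The Gpam window held TCACNCCA 158 to 165 bases before the start and CCAAT, on the other strand, 70 to 74 bases before it. TCACNCCA occurs in 3.67% of the 32851 windows of this length in the table and CCAAT in 33.8%. The Lpin1 window held CANNTG 184 to 189 and 194 to 199 bases before the start and AGGTCA 69 to 74 bases before it. CANNTG occurs in 66.2% of windows and AGGTCA in 14.0%. No motif copy overlapped another in these windows. The printed Gpam window and the Lpin1 window shared none of the 4 motifs. The window of the other Gpam start held neither TCACNCCA nor CCAAT. It held AGGTCA alone, as that of Lpin1 did beside CANNTG, 191 to 196 bases before the start. Which Gpam start was used in these livers was not tested. Of the 8 enzymes, 6 had an entry in the table. The window of Agpat2 held none of the 4 motifs, and those of Agpat3 and Mogat1 held CANNTG alone, in 1 and 2 copies. Of the 3 Lpin2 starts, 1 had CCAAT in 3 copies and CANNTG in 2, and another had CANNTG in 1.

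The array-wide picture touches every value below. HGI 1 had the smallest spread of values (SD 2.16 log2, against 2.26 to 2.31 for the other 9 arrays). Among the 20335 probe sets above the array median on all 10 arrays, HGI 1 was the lowest HGI array at 51.6%, and LGI 4 the lowest LGI array at 31.6%. At the 15 enzyme probe sets that were equally bright, HGI 1 was the lowest of its diet at 13 and LGI 4 of its diet at 9. The enzymes' values without these arrays are given where they differ most. The hepatocyte marker Alb stood at 14.69 log2 in both diets, near the top of the scale. The median difference of the 7 hepatocyte markers, 0.00, was that of Alb, with 4 above and 3 below 0. Those below were Tat at -0.26, Cps1 at -0.19 and Hnf4a at -0.11 (adjusted p from 0.650 to 0.819 in limma). Apoa1, Ttr and Serpina1b, also near the top of the scale, stood at 0.11, 0.03 and 0.06.

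Gpam makes lysophosphatidic acid at the outer mitochondrial membrane and is a known target of insulin and SREBP-1c in mouse liver. At its brighter probe set (1419499_at) the HGI mice read 12.34, 12.21, 12.24, 12.59 and 12.82 log2, and the LGI mice 11.95, 11.84, 11.87, 11.25 and 11.97. Every HGI mouse lay above every LGI mouse, and LGI 4 lay well below the other 4 LGI mice. The means were 12.44 ± 0.26 and 11.78 ± 0.30 (SD, n = 5 each), a difference of 0.66 ± 0.15 (log2, SE) or 1.58-fold. Limma gave an unadjusted p of 7.39e-04 and an adjusted p of 0.207, so the difference did not pass over all probe sets. The 95% confidence interval of the difference ran from 0.34 to 0.99.

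A dimmer Gpam probe set (1425834_a_at) read 7.05, 7.97, 7.34, 7.75 and 7.42 in HGI and 7.68, 6.36, 7.03, 5.63 and 6.64 in LGI. The diets overlapped here, since LGI 1 lay above 3 HGI mice, and LGI 4 was again the lowest. The difference was 0.84 ± 0.30 (log2, SE; unadjusted p = 0.0151, adjusted p = 0.520 in limma). Without LGI 4 the differences at the brighter and the dimmer probe set were 0.53 and 0.58, with unadjusted p of 8.67e-04 and 0.0325. Without HGI 1 and LGI 4 together the difference at the brighter probe set was 0.56.

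**Figure D1:**
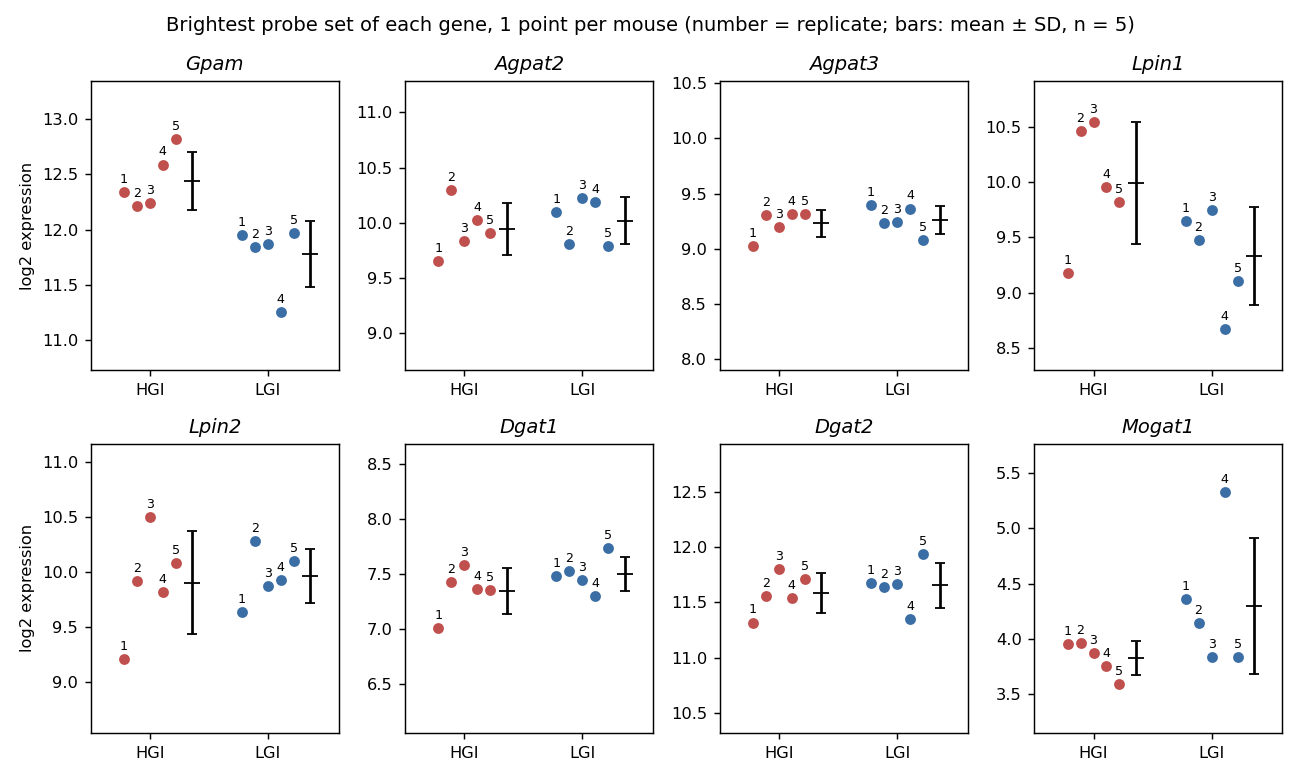
Log2 expression of the brightest probe set of each of the 8 enzymes (y axis, each panel spanning the same number of log2 units), by diet (x axis), with 1 point per mouse numbered by replicate and the mean ± SD beside it (n = 5). The 5 HGI points of Gpam all lie above the 5 LGI points, those of Lpin1 do so apart from HGI 1, and the other enzymes overlap, with LGI 4 highest for Mogat1.

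Of the acyltransferases of the second step, Agpat2, the isoform whose loss causes lipodystrophy in humans and mice, had 1 probe set. It read 9.66 to 10.29 log2 in HGI (median 9.90) and 9.79 to 10.23 in LGI (median 10.10), so the diets overlapped almost wholly. The difference was -0.08, with a 95% confidence interval from -0.35 to 0.20 (adjusted p = 0.942 in limma). Agpat3, an isoform with broad tissue expression, had 4 probe sets, all above the array median on every array. At the brightest of these (1450504_a_at) HGI mice read 9.03, 9.31, 9.20, 9.31 and 9.31 and LGI mice 9.40, 9.23, 9.24, 9.37 and 9.08. These values overlapped, with the lowest mouse in HGI and the highest in LGI, and the difference was -0.03 (95% confidence interval -0.22 to 0.16). The other Agpat3 probe sets stood at -0.09, -0.21 and -0.10, with adjusted p from 0.728 to 0.921. HGI 1 was the lowest HGI array at all 4, and the one at -0.21 (1433819_s_at) stood at -0.10 without it. Its suffix marks probes that can be shared with another gene.

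Lpin1 is a phosphatidate phosphatase that also acts in the nucleus as a coactivator of PPARalpha with PGC-1alpha, and its hepatic transcript is known to respond to fasting and glucocorticoids. Its brighter probe set (1418288_at) read 9.17, 10.46, 10.54, 9.96 and 9.82 log2 in HGI and 9.65, 9.47, 9.75, 8.67 and 9.11 in LGI. HGI 1 lay among the LGI mice, while the other 4 HGI mice lay above all 5 LGI mice. The means were 9.99 ± 0.55 and 9.33 ± 0.44 (SD, n = 5 each), and the difference was 0.66 ± 0.25 (log2, SE), or 1.58-fold. It did not pass (unadjusted p = 0.0221, adjusted p = 0.562 in limma).

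The other Lpin1 probe set (1426516_a_at) gave nearly the same reading in each mouse, from 9.26 to 10.44 in HGI and from 8.69 to 9.72 in LGI. Its difference was 0.61 (unadjusted p = 0.0183, adjusted p = 0.537). Leaving out 1 mouse moved the brighter probe set's difference from 0.50, without LGI 4, to 0.86, without HGI 1. Its unadjusted p ranged from 0.00205 to 0.0629, and the adjusted p stayed at 0.276 or above. Without HGI 1 the diets did not overlap at either Lpin1 probe set.

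Lpin2 is the lipin of highest activity in mouse liver. Of its 4 probe sets 3 were well above the array median, and at the brightest (1452836_at) HGI mice read 9.21, 9.92, 10.50, 9.82 and 10.08 and LGI mice 9.64, 10.29, 9.87, 9.93 and 10.10. The diets overlapped, and HGI mice held both the lowest and the highest value. The differences at these 3 probe sets were -0.06, -0.18 and -0.04, with adjusted p from 0.920 to 0.987. Each of the 3 turned to between 0.03 and 0.11 without HGI 1, so they have no settled direction. The fourth probe set (1446316_at) read 2.69 to 4.14 in HGI and 2.62 to 3.15 in LGI. Only 2 of its 10 values lay above the array median (3.91 to 3.97 log2), and its difference of 0.64 (unadjusted p = 0.0137, adjusted p = 0.509) carries no fold.

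Whether the diet difference was the same for both lipins was tested on the within-mouse difference between their brightest probe sets. Probe affinities cancel between diets in such a value, though its zero has no meaning. Lpin1 minus Lpin2 was -0.04, 0.54, 0.05, 0.14 and -0.26 in HGI and 0.01, -0.81, -0.12, -1.26 and -0.997 in LGI. The ranges overlapped, with 3 LGI mice below every HGI mouse. HGI exceeded LGI by 0.72 (two-sided exact permutation p = 0.0556, 0.111 adjusted over the 4 enzyme pairs tested). It passed without LGI 1 (0.88, exact permutation p = 0.0159, adjusted 0.0317), and with every mouse included a difference between the lipins was not established.

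The last step is carried out by a pair of unrelated enzymes, Dgat1, which re-esterifies fatty acids in the endoplasmic reticulum, and Dgat2, which is associated with newly made fatty acids. Dgat2 (1422678_at) read 11.32, 11.56, 11.80, 11.54 and 11.71 log2 in HGI and 11.67, 11.64, 11.66, 11.35 and 11.94 in LGI. The lowest mouse of either diet was HGI 1 or LGI 4, and the diets overlapped throughout. The difference was -0.07 with a 95% confidence interval from -0.32 to 0.18, and the dimmer Dgat2 probe set stood at 0.03 (adjusted p = 0.944 and 0.982 in limma).

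Dgat1 (1418295_s_at, another probe set whose probes can be shared) read 7.01, 7.43, 7.58, 7.37 and 7.35 in HGI and 7.49, 7.53, 7.45, 7.30 and 7.73 in LGI. HGI 1 was the lowest mouse and LGI 5 the highest. The difference was -0.15 (95% confidence interval -0.39 to 0.09, adjusted p = 0.823), and -0.07 without HGI 1. A second Dgat1 probe set lay at the array median (means of 4.16 and 4.08) and stood at 0.08. The within-mouse difference Dgat1 minus Dgat2 moved by -0.08 between diets (two-sided exact permutation p = 0.183, adjusted 0.243). That of Agpat2 minus Agpat3 moved by -0.05 (exact permutation p = 0.611).

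Mogat1, the monoacylglycerol acyltransferase that is induced by PPARgamma in fatty mouse liver, read 3.95, 3.96, 3.87, 3.76 and 3.59 log2 in HGI and 4.36, 4.14, 3.83, 5.33 and 3.83 in LGI. The 3 values above their array's median were all from LGI mice, and LGI 4 stood well above the rest. The difference of -0.48 ± 0.23 (log2, SE) did not pass (unadjusted p = 0.0595, adjusted p = 0.684 in limma) and was -0.22 without LGI 4. No fold is given, since the HGI level may be the floor of the probe set.

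Gpam and Mogat1, the entry enzymes of both routes, were also set against each other, although Mogat1 lay below the array median on all 5 HGI arrays. The within-mouse value Gpam minus Mogat1 was 8.39, 8.25, 8.36, 8.83 and 9.23 in HGI and 7.58, 7.70, 8.04, 5.92 and 8.14 in LGI. The diets did not overlap, as they did not for Gpam alone. The difference in these readings was 1.14 (two-sided exact permutation p = 0.00794, the smallest that 252 assignments of the mice can give, and 0.0317 adjusted over the 4 pairs). The adjusted value was 0.0635 without LGI 4, where the difference was 0.75, and between 0.0952 and 0.111 without any 1 of the HGI mice. Without HGI 1 and LGI 4 together it was 0.114, with a difference of 0.81. Since the diet difference of Mogat1 itself could not be measured, this value does not show that the enzymes responded differently.

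**Figure D2:**
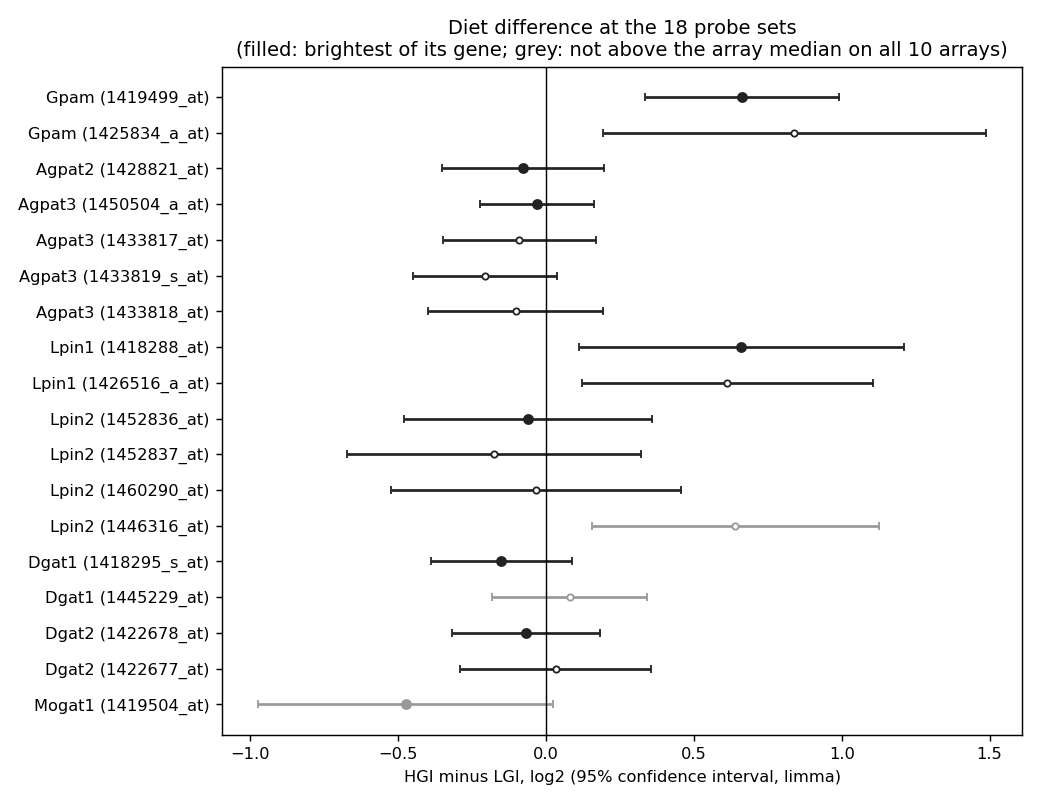
Difference between diets (HGI minus LGI, log2, x axis) at each of the 18 probe sets (y axis), with 95% confidence intervals from limma. The intervals of both Gpam and both Lpin1 probe sets and of the dim Lpin2 probe set lie above 0, and the other 13 include 0.

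Over the 18 probe sets, 5 had an unadjusted p under 0.05, all with the higher value in HGI, where 7.54% of all probe sets had such a p and 2.76% had it with the higher value in HGI. These were both probe sets of Gpam, both of Lpin1 and the dim one of Lpin2, so they are not 5 separate genes. None of the 18 had an unadjusted p under 0.05 with the lower value in HGI, where 4.78% of all did. Single probe sets, of Mogat1 or Agpat3, reached it under 4 of 19 alternative settings. The diets did not overlap at 1 of the 18, against 1.67% of all probe sets (0.475% with HGI higher and 1.2% with HGI lower). With 1 probe set per gene, 2 of 8 enzymes had an unadjusted p under 0.05 and a higher value in HGI, against 3.07% of all genes (9.3% in either direction), and 6 of 8 had a value below 0. The median difference of the 8 was -0.06, beside -0.03 over the brightest probe sets of all 18193 named genes.

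**Figure D3:**
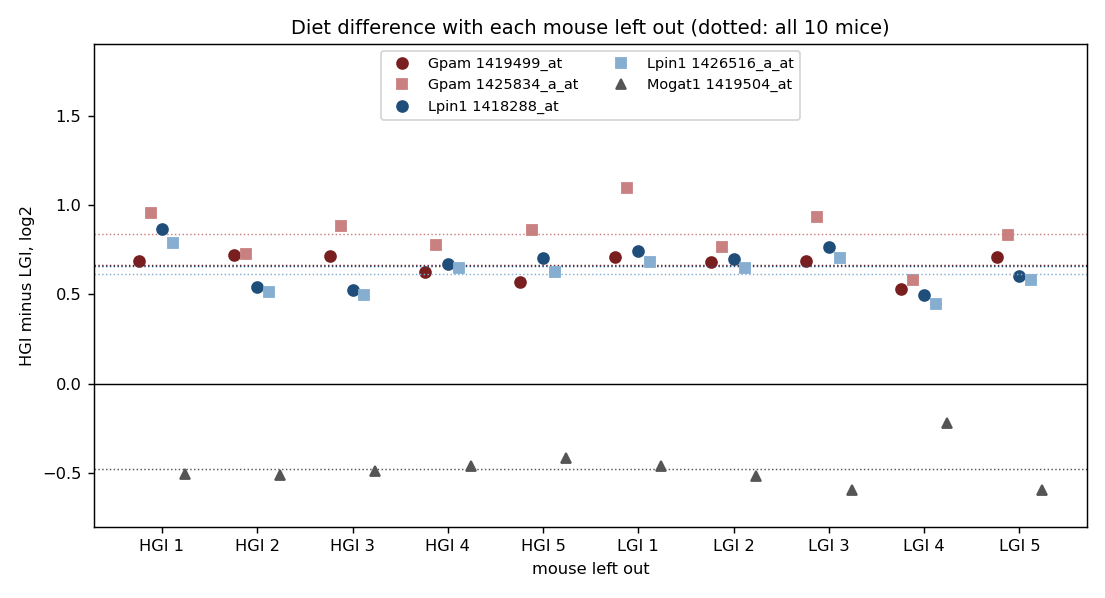
Difference between diets (HGI minus LGI, log2, y axis) at the probe sets of Gpam, Lpin1 and Mogat1 when the mouse named on the x axis was left out, with dotted lines at the values over all 10 mice. All points of Gpam and Lpin1 stay above 0 and all of Mogat1 below it, and leaving out LGI 4 brings each of the 5 probe sets nearest to 0, the brighter ones to 0.53 for Gpam and 0.50 for Lpin1.

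The rest of the pathway was read from 4 further lists of 57 genes, of which 53 were measured by 127 probe sets, and 0 of these passed the threshold. Among the other isoforms of the same steps, 12 genes with a median difference of -0.03, Gpat4, the acyltransferase of the first step in the endoplasmic reticulum, stood opposite to Gpam. It read 7.36, 7.69, 7.98, 7.48 and 7.59 log2 in HGI and 7.96, 7.91, 7.90, 7.74 and 8.07 in LGI. The difference was -0.30 (unadjusted p = 0.0194, adjusted p = 0.542), and HGI 3 lay among the LGI mice. The phosphatidate phosphatases Plpp1 and Plpp3 stood at 0.22 and 0.19 (adjusted p = 0.673 for both).

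In the supply of glycerol 3-phosphate and acyl-CoA, 10 measured genes had a median difference of -0.01. Gpd2, the mitochondrial glycerol-3-phosphate dehydrogenase, which uses glycerol 3-phosphate up, read 8.64, 9.11, 8.56, 9.11 and 8.92 in HGI and 8.41, 8.54, 8.38, 8.08 and 8.67 in LGI. All but 2 HGI mice lay above every LGI mouse, and the difference of 0.45 ± 0.13 did not pass (unadjusted p = 0.00528, adjusted p = 0.412). Its cytosolic counterpart Gpd1, which makes glycerol 3-phosphate and was named after its value was seen, stood at -0.19 (adjusted p = 0.884). Acsl5, an acyl-CoA synthetase, stood at 0.32, or 0.20 when LGI 4 was left out (adjusted p = 0.564 over all mice), and the fatty acid transport protein Slc27a5 at -0.19 (adjusted p = 0.657).

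The branches to phospholipids, 16 measured genes, had a median of -0.09 with 5 above and 11 below 0. Crls1, the cardiolipin synthase, stood at -0.26 (adjusted p = 0.651), Cept1, which makes both phosphatidylcholine and phosphatidylethanolamine, at -0.20 (adjusted p = 0.705), and Pcyt2, of the phosphatidylethanolamine branch, at 0.25 (adjusted p = 0.669). Cept1 stood at -0.11 without HGI 1, and Pcyt2 at 0.16 without LGI 4. Over the 4 lists, 3 genes had an unadjusted p under 0.05 with the higher value in HGI and 4 with the lower, where 3.07% and 6.23% of all genes did.

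**Figure D4:**
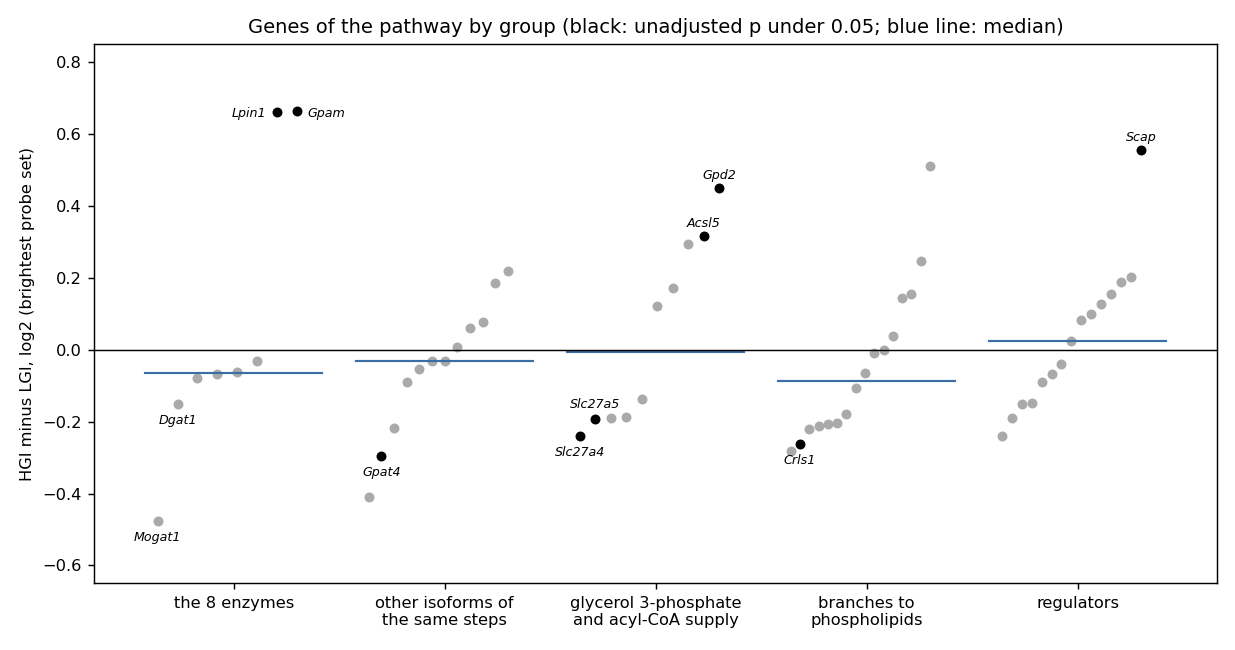
Difference between diets (HGI minus LGI, log2, y axis) of each measured gene, by list (x axis), 1 point per gene at its brightest probe set, with black points for an unadjusted p under 0.05 and a blue line at the list's median. Gpam and Lpin1 stand at 0.66 each while the medians of the 5 groups lie between -0.09 and 0.02.

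The known regulators of these enzymes had a median of 0.02 over 15 measured genes. Scap, the escort protein of SREBPs, stood at 0.56 (unadjusted p = 0.0331, adjusted p = 0.615). LGI 4 read 9.32 at this probe set against 10.42 to 10.74 in the other LGI mice, and the difference was 0.30 without it. Srebf1, which encodes SREBP-1, stood at -0.24 (95% confidence interval -0.74 to 0.27), and Mlxipl, which encodes the glucose-responsive factor ChREBP, at 0.13. Ppara stood at 0.10, Pparg at 0.15 and Ppargc1a, the PGC-1alpha gene, at -0.19, with adjusted p from 0.884 to 0.944 for these 5. Leaving out 1 mouse turned the sign for Mlxipl, Ppara and Ppargc1a and moved Srebf1 to -0.04 without HGI 2 and Pparg to 0.04 without HGI 5. Usf2 and Nr3c1, the glucocorticoid receptor, stood at -0.15 and 0.19 (adjusted p = 0.752 and 0.784).

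Markers of some other cells also had higher values in HGI, and their part in the differences of Gpam and Lpin1 was not tested. In whole liver, fewer cells of a type and less RNA per cell cannot be told apart. All 8 Kupffer cell and macrophage markers had values above 0, with a median of 0.28 and a summed level of 10.89 to 11.73 log2 in HGI and 10.64 to 11.38 in LGI. Their median was 0.07 without HGI 5. All 8 endothelial markers did too, with a median of 0.20 which was 0.12 without HGI 2, and summed levels of 9.93 to 10.52 and 9.72 to 10.26. All 4 measured erythroid markers were above 0, with a median of 0.91 and summed levels of 9.13 to 10.41 and 8.09 to 9.48. A dimmer probe set of Slc4a1, the red cell anion exchanger, was the 1 probe set of any list to pass the threshold. It read 5.14 to 7.38 in HGI and 3.68 to 3.83 in LGI, below the array median on all 5 LGI arrays (adjusted p = 0.0211 in limma). These counts of Kupffer cell, endothelial and erythroid markers hold at each gene's brightest probe set. Timd4, Pecam1 and Hemgn lay above the array median there on only 4, 3 and 0 of the 10 arrays. No marker passed at its brightest probe set. Adjusted p in limma ran from 0.525 to 0.966 for Kupffer cell and from 0.217 to 0.954 for endothelial markers. For erythroid markers it ran from 0.0625 to 0.940. The median difference over all named genes was -0.03, and the share of them above 0 was not counted. Dimmer probe sets of Clec4g and Slc4a1 stood at -0.27 and -0.01, and the remaining dimmer ones above 0. Of 5 measured adipocyte markers, where Gpam, Lpin1 and Agpat2 are also expressed, Adipoq, Lep and Cidec lay below the array median on every array. Retn stood at -0.07 and Fabp4 at 1.08 (adjusted p = 0.276 in limma). With 1 mouse left out, the adjusted p of Fabp4 ranged from 0.0414, without HGI 3, to 0.577. The summed levels were 7.33 to 8.80 in HGI and 7.14 to 7.63 in LGI. Most of each sum is Fabp4, with means of 7.77 in HGI and 6.69 in LGI, against 5.24 and 5.31 for Retn. A dimmer Fabp4 probe set stood at 0.85 (adjusted p = 0.504 in limma). Further ones, below the array median on every array, stood at -0.14 and 0.19. Stellate cell markers had a median of 0.17 over 6 genes, 0.08 without LGI 4 (summed levels 10.07 to 10.93 and 9.70 to 10.52). Of these genes 4 stood above and 2 below 0, from -0.21 for Des to 0.50 for Rgs5 (adjusted p = 0.543 and 0.592 in limma). Cholangiocyte markers had a median of -0.09 over 5 genes (summed levels 6.29 to 7.03 and 6.41 to 6.65).

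The genes whose brightest probe set followed each enzyme most closely over the 10 arrays were read from all genes with a mean of at least 6 log2, as a description. The points share the 10 mice, the diet and the low readings of HGI 1 and LGI 4. For Gpam they were Fads1, a fatty acid desaturase, and Pnpla3, a lipid droplet protein, with a Pearson r of 0.93 each and 0.87 each without LGI 4. For Lpin1 they were Crebzf, a transcription factor (r = 0.95, and 0.94 without LGI 4), and Cideb, a droplet and lipoprotein factor (r = 0.92, and 0.88). Lpin2 was followed by Foxo1, the forkhead factor of insulin signalling (r = 0.97), and Hsdl1 (0.96). The genes nearest to Mogat1 were Plcxd2 and Tifa (r = 0.95 each), at 0.68 and 0.67 without LGI 4. Those of Dgat1 were Xrn1 and Ppm1a, of Dgat2 Erlec1 and Rap2a, of Agpat2 Dhx8 and Ddx6 and of Agpat3 Gskip and Sptlc1, at r from 0.88 to 0.97.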

How the data were processed

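Liver RNA of 10 mice was read on 1 array each. The authors' deposited values are log2 expression per probe set, and the submitters' processing notes name RMA and R 2.6.1. RMA corrects background, normalizes between arrays and combines probes. The sources used here name no genome build. The 64 control probe sets of the 45101 deposited were left out, with no filter on dim signals. Of the rest, 34945 had 1 gene symbol, 932 several and 9160 none. Symbols were updated by gene ID through a RefSeq table (GRCm38.p6), which changed 0.

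HGI was compared with LGI by limma 3.58.1 in R 4.3.3, without covariates, on all 45037 probe sets, with Benjamini-Hochberg adjustment over all of them. Differences are HGI minus LGI. Adjusted p-values of single probe sets are limma's, and p-values of enzyme pairs are from two-sided exact permutations. The brightest probe set has the highest mean over 10 arrays. Summed levels are the log2 of summed linear values. The procedure was tested on simulated data. Mice of the same replicate number were not treated as pairs in the main comparison. Their deviations from the diet means correlated at -0.13 to 0.04, which cannot show whether they were paired. The number of arrays limits the precision.

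The enzymes and lists were chosen with earlier results of these data known. Named genes were every enzyme, in each further pathway list the 3 of smallest p with any past the threshold, 5 fixed regulators, and the 2 genes most like each enzyme. Alternatives covered filters, normalization, variance model, a replicate block, weights, a single probe set for each gene and leaving out arrays. Gene sequences of Dgat1 and Dgat2 were not used here.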

Additional observations from a re-analysis of the deposited data

Results flagged for a closer look

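A single mouse far from the others of its diet was looked for in 44 sets of 5 mice, the 18 probe sets and the 4 within-mouse pairs in each diet. It was found in 2, where chance alone flags about 5% of such sets. At the brighter Gpam probe set LGI 4 read 11.25 log2, and the nearest LGI mouse 11.84. For Gpam minus Mogat1, LGI 4 stood at 5.92 and the nearest LGI mouse at 7.58. Both values include the same Gpam reading, so they are not separate. Without LGI 4 the Gpam difference was 0.53 with an unadjusted p of 8.67e-04 in limma, close to that over all mice (7.39e-04).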

How the results depend on the processing

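None of the 18 enzyme probe sets passed under any of the 19 alternatives. Both Gpam and both Lpin1 probe sets kept values above 0, and Mogat1 values below 0, in every alternative in which they were tested, with adjusted p from 0.111 to 0.424 for the brighter Gpam probe set and from 0.241 to 0.801 for that of Lpin1. The count over all probe sets, 29 (17 higher and 12 lower), was 63 when quantile normalized again (36 and 27), 17 when median centred (13 and 4), 64 with array weights (34 and 30), 58 without HGI 1 and LGI 4 together (35 and 23) and 5 to 49 with 1 array left out. Lower calls outnumbered higher ones with 1 probe set per gene (12 higher and 18 lower) and without HGI 3 (21 and 28), while without HGI 5 there were 7 higher and 0 lower, and without LGI 2, LGI 3 or LGI 5 there were 5 and 0. The enzyme probe sets with an unadjusted p under 0.05 and a higher value in HGI, 5 in all, numbered 2 with 1 probe set per gene, by construction, and 3 to 5 with 1 array left out. With the lower value in HGI there were 0, and 1 with the replicate block (Mogat1) and without HGI 2 (Agpat3 1433819_s_at), LGI 3 or LGI 5 (Mogat1). Those without overlap numbered 4 without HGI 1 and LGI 4 together and 1 to 4 with 1 array left out (4 without HGI 1, 2 without HGI 2 or LGI 1).

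With the replicate block, in which the exact permutation flips 5 differences and cannot give a p under 0.0625, Gpam minus Mogat1 stood at 1.14 (exact permutation p = 0.0625, adjusted 0.125). The block moved no enzyme past the threshold, and the count over all probe sets was 33. Without HGI 1 and LGI 4 together Gpam minus Mogat1 was 0.81 (adjusted 0.114), and it ranged from 0.75 to 1.30 with 1 array left out. Lpin1 minus Lpin2 ranged from 0.57 to 0.88, Dgat1 minus Dgat2 from -0.11 to -0.05 and Agpat2 minus Agpat3 from -0.12 to 0.00982, and the last stood at 0.0298 with all probe sets averaged.

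Values near 0 changed sign, and the cause was not tested. Agpat3 1450504_a_at stood at 0.0146 when quantile normalized again, at 0.00734 with array weights and at 0.0464 without HGI 1 and LGI 4 together. Agpat3 1433818_at stood at 0.0058 with weights and at 0.0342 without both arrays, and Lpin2 1452836_at at 0.0593 with weights. Without both arrays Agpat2 stood at 0.0340, the 3 brighter Lpin2 probe sets at 0.10, 0.0534 and 0.00494, and Dgat2 1422677_at at -0.00569. With 1 array left out, Agpat3 1450504_a_at ranged from -0.0772 to 0.0205, Agpat3 1433818_at from -0.18 to 0.0136, and those Lpin2 probe sets from -0.21 to 0.11, -0.34 to 0.0262 and -0.18 to 0.14. Dgat1 1445229_at ranged from -0.0207 to 0.12, and the Dgat2 probe sets from -0.14 to 0.00228 and from -0.0893 to 0.12. Among regulators, in alternatives chosen after seeing the data, Mlxipl ranged from -0.0408 to 0.301, Ppara from -0.00388 to 0.190 and Ppargc1a from -0.402 to 0.0431. Probe sets near the array median (Mogat1, the dim ones of Lpin2 and Dgat1) have little signal over background.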

Other observations

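Of the 127 probe sets of the 4 further lists, 74 were not the brightest of their gene, and 9 of these had an unadjusted p under 0.05 in limma, 5 with the higher value in HGI and 4 with the lower. They were chosen after their values were seen, and none passed the threshold. The smallest p of the lists was that of Cds2, which makes CDP-diacylglycerol for the phosphatidylinositol branch, at -0.46 at a dimmer probe set (unadjusted p = 3e-04, adjusted p = 0.137), against -0.22 at its brightest. Chpt1, the last enzyme of phosphatidylcholine synthesis, stood at -0.51 and -0.30 at 2 dimmer probe sets (adjusted p = 0.520 and 0.639), against -0.28 at its brightest, and Crls1 at -0.22 (adjusted p = 0.629). On the other side, Gpd2 stood at 0.57 (adjusted p = 0.338) and Plpp1, a phosphatidate phosphatase, at 0.50 (adjusted p = 0.495). Insig2, which retains SREBPs in the endoplasmic reticulum, stood at 0.44 (adjusted p = 0.579) and Acsl3, an acyl-CoA synthetase, at 0.36 (adjusted p = 0.631). The last of the 9, of Scap, lay below the array median on every array.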
